A study of Lactuca sativa var. capitata with 10 samples.

Results

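The 2 genes described here are bHLH137 (LSAT_4X83840), which encodes a transcription factor, and GRP6 (LSAT_2X90361), which encodes the gibberellin-regulated protein 6. They are 2 of the 38293 genes counted in lettuce roots. Both names come from the RT-qPCR primer list of the study, since the count table holds locus tags only. The pair was selected on its higher expression in chitin-treated roots in these same libraries. The difference between the treatments is therefore given below as a description without a test. Both genes were among the 21936 that passed the filter on low counts.

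The roots came from wild-type butterhead lettuce of the cultivar 'Alexandria', transplanted as young seedlings into peat-based potting soil (PS) or into the same soil mixed with 2 g per L of crab shell chitin (PS+CH). Roots were washed and frozen 72 hours after transplanting (hpt). Each treatment had 5 pools of 5 randomly selected plants, and each pool gave 1 RNA-Seq library. The plants stood in a greenhouse whose temperature and light followed the weather, and the reads were aligned to another cultivar, 'Salinas'.

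Basic helix-loop-helix (bHLH) proteins are transcription factors that bind DNA as dimers, and in Arabidopsis the bHLH137 transcript is known as one that DELLA proteins, the repressors of gibberellin responses, raise. Gibberellin-regulated proteins, also called GASA or snakin peptides, are small secreted peptides rich in conserved cysteines, and several respond to gibberellin in growing tissue. Gibberellin and auxin together set cell elongation and the growth of the root.

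The study designed a primer pair for each gene to measure it by RT-qPCR. The paper reports that most of its RT-qPCR targets were too weakly expressed to be analysed. Of the targets analysed in roots, most were slightly higher with chitin, but the paper found no significant difference for any of them (Kruskal-Wallis test). The paper's text on this outcome names neither bHLH137 nor GRP6. The primers are shown because they are the only sequence at hand that ties each locus tag to a transcript. They are written 5′ to 3′, with the last 5 bases at the 3′ end, from which the polymerase extends, in capitals.
bHLH137 forward: ctccggccaccgataACTAC
bHLH137 reverse: tgcatgcataaactacataCACAT
GRP6 forward: aactgtctcggcaaaGGGAG
GRP6 reverse: ctggaggcacacacaGACAT
The reverse primer of bHLH137 is the longest, with 24 bases against 20 for the others, and has a GC content of 33.3%. That of the forward primer was 60%, and both GRP6 primers had 55%.

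Total counts per library lay between 17624520 and 18545790. Expression is given as CPM, the reads of a gene scaled to a fixed library total after TMM normalisation, and 3 reads were worth 0.157 to 0.173 CPM. The TMM factors did not overlap between the treatments (1.01 to 1.08 in PS and 0.949 to 0.986 in PS+CH). PS replicate 3 stood apart from the other PS pools, with the highest factor and a chi-square per degree of freedom of 30.3 to 40.6 against each of them. Pairs among the other PS pools had 14.3 to 30.7, the highest for replicates 1 and 2, and PS+CH pairs had 9.03 to 20.5. All pairs were far above the value of 1 that sampling noise alone would give. The count table pairs no names with its locus tags, so root marker genes could not be looked up. Both genes belong to multigene families, and reads of close relatives could be shared out or dropped by the counting in ways that the counts do not show. CPM do not account for transcript length, and in root RNA fewer expressing cells and less transcript per cell cannot be told apart.

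bHLH137 was a gene of low expression in the control roots. PS replicates 1 to 5 had 7.18, 3.85, 5.45, 4.07 and 6.69 CPM, from 129, 71, 104, 75 and 123 reads. PS+CH replicates 1 to 5 had 10.7, 13.4, 11.1, 9.78 and 9.34 CPM, from 187, 241, 192, 172 and 165 reads. The treatments did not overlap, and the lowest PS+CH pool was 1.30-fold above the highest PS pool. The mean was 5.449 ± 1.498 CPM in PS and 10.86 ± 1.597 CPM in PS+CH (SD, n = 5 each). The log2-fold change was 0.99 (standard error 0.18), just under the DEG threshold of 1 that the study set.

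GRP6 had many more reads than bHLH137. PS replicates 1 to 5 had 95.9, 141, 55.6, 114 and 82.5 CPM, from 1724, 2609, 1061, 2098 and 1517 reads. PS+CH replicates 1 to 5 had 182, 191, 191, 165 and 198 CPM, from 3200, 3421, 3312, 2907 and 3502 reads. The control pools were spread widely, with replicate 3 lowest and replicate 2 highest, whereas the chitin pools lay close together above them. The lowest PS+CH pool was 1.17-fold above the highest PS pool. The mean was 97.9 ± 32.3 CPM in PS and 186 ± 12.6 CPM in PS+CH (SD, n = 5 each), and the log2-fold change was 0.92 (standard error 0.19). Without PS replicate 3 the log2-fold change was 0.76, and without PS replicate 2 it was 1.08.

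**Figure D1:**
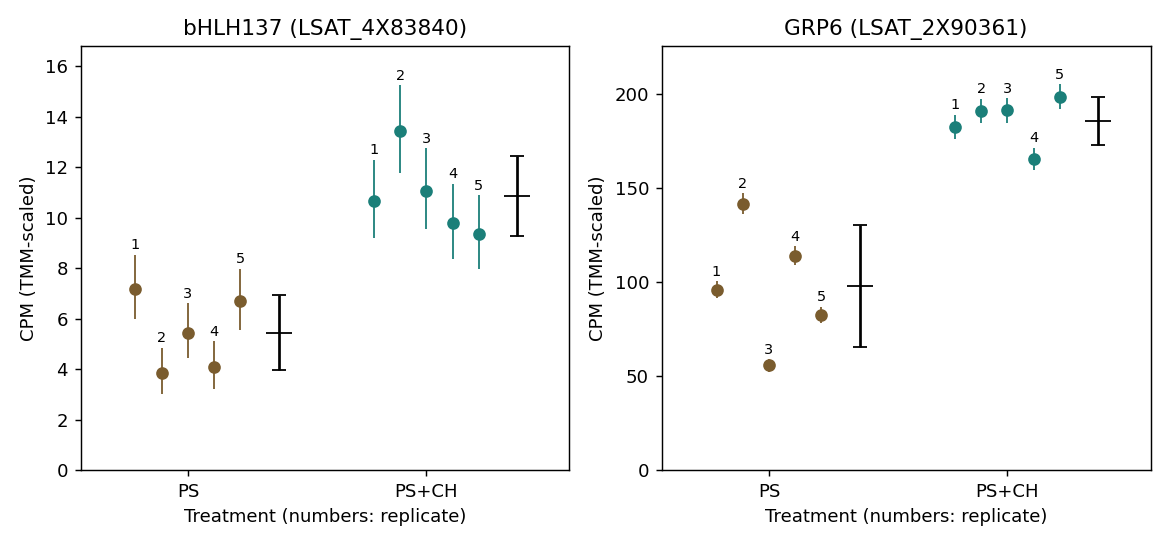
Expression of bHLH137 and GRP6 in each root pool, in CPM after TMM scaling, for PS (brown) and PS+CH (teal). Thin bars are 95% Poisson intervals, which cover counting error only, and black bars are the mean and SD of 5 pools. All PS+CH pools lie above all PS pools for both genes, and the GRP6 values spread from 55.6 to 141 CPM in PS and from 165 to 198 CPM in PS+CH.

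A lack of overlap with higher chitin pools was found for 7.05% of all tested genes. In size, the difference of bHLH137 was exceeded by 235 of the tested genes (1.07%) and that of GRP6 by 277 (1.26%). Among genes within 0.5 of the same mean log2 CPM, 11 of 3151 had a higher log2-fold change than bHLH137 and 5 of 1304 a higher one than GRP6. These counts describe the contrast on which the pair was chosen, so nothing is read from them for these 2 genes.

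By number of reads, bHLH137 ranked from 14563 to 17031 among the counted genes of the PS libraries and from 11418 to 13211 in the PS+CH libraries. It had more reads than 33.3 to 42.4% of the detected genes in PS and than 48.1 to 55.5% in PS+CH. It thereby moved from below to near the middle of the detected genes. GRP6 ranked from 1298 to 3984 in PS and from 934 to 1229 in PS+CH. It had more reads than 84.6 to 94.9% of the detected genes in PS and than 95.1 to 96.3% in PS+CH. These ranks compare reads and not transcripts, since longer transcripts give more reads.

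Within a treatment, the pools varied more than counting error alone would give. For bHLH137 the coefficient of variation was 27.5% in PS and 14.7% in PS+CH, where Poisson counting alone would give 9.98% and 7.23%. For GRP6 it was 33.0% in PS and 6.82% in PS+CH, where counting alone would give 2.36% and 1.75%. The highest PS pool had 2.54 times the GRP6 level of the lowest PS pool, and the highest PS+CH pool had 1.20 times that of the lowest.

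The spread on the log2 scale was set beside that of genes with a similar mean. GRP6 had an SD of 0.51 in PS, above 97.1% of the 1304 genes near its level, whose median was 0.17. In PS+CH its SD was 0.10, above 38.9% of these genes, whose median was 0.12. bHLH137 had an SD of 0.40 in PS, above 81.7% of the 3151 genes near its level, and of 0.20 in PS+CH, above 47.2% of them. Thus both were among the more variable of these genes in the control roots, and neither was in the chitin-treated roots. What part the lower level in PS had in this was not tested. Without PS replicate 3, the SD in the remaining 4 PS pools was 0.33 for GRP6 and 0.46 for bHLH137, above 93.4% and 90.4% of the genes near their levels.

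The difference in spread between the treatments was tested on the absolute deviations of log2 CPM from the treatment median. For GRP6 the mean absolute deviation was 0.07 in PS+CH and 0.36 in PS, a difference of -0.30 (exact permutation test over all arrangements of the 10 pools, two-sided, p = 0.0794, n = 5). Leaving out any 1 of the 5 PS pools brought this p to values between 0.00794 and 0.0476 (exact permutation tests), where the median of 4 pools falls between pools. Leaving out any 1 of the 5 PS+CH pools gave p from 0.0794 to 0.143 (exact permutation tests), so that 5 of the 10 tests without 1 pool did not pass. For bHLH137 the mean absolute deviation was 0.14 in PS+CH and 0.32 in PS, a difference of -0.18 (exact permutation test, two-sided, p = 0.135, n = 5). Without PS replicate 3 its difference was -0.26, with p = 0.0159 (exact permutation test), while leaving out any other pool gave p from 0.0635 to 0.254 (exact permutation tests). With all 10 pools, the lower spread in chitin-treated roots did not pass for either gene. The 5 pools of a treatment came from separate plants in 1 experiment, so the p-values measure the spread between these pools. They are not adjusted for the 2 genes.

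Whether the 2 genes varied together from pool to pool was a question the choice of the pair did not use. Since the treatments did not overlap for either gene, a correlation over all 10 pools would mainly repeat the difference between them, and the treatment means were therefore subtracted first. In PS, replicate 2 was 0.60 above the mean for GRP6 and 0.45 below it for bHLH137 on the log2 scale. Replicate 4 was likewise above the mean for GRP6, by 0.29, and below it for bHLH137, by 0.37. Replicate 3 had the lowest GRP6 level, 0.75 below the mean, with bHLH137 at 0.04 above it. The deviations had opposite signs in 4 of the 5 PS pools and in 1 of the 5 PS+CH pools.

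Over the 10 pools, the deviations had Pearson's r of -0.47 (exact permutation test within treatments, two-sided, p = 0.363, n = 10) and Spearman's rho of -0.65 (exact permutation test, p = 0.148). The GRP6 deviations ran from -0.75 to 0.60 in PS and only from -0.16 to 0.10 in PS+CH. Pearson's r therefore rests mainly on the PS pools. Without PS replicates 1 and 2, the pools farthest from the median of bHLH137, r was -0.36 (exact permutation test, p = 0.654, n = 8). Without PS replicate 2 alone, r was -0.17. No shared or opposed variation of the 2 genes was thus detectable with 10 pools.

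**Figure D2:**
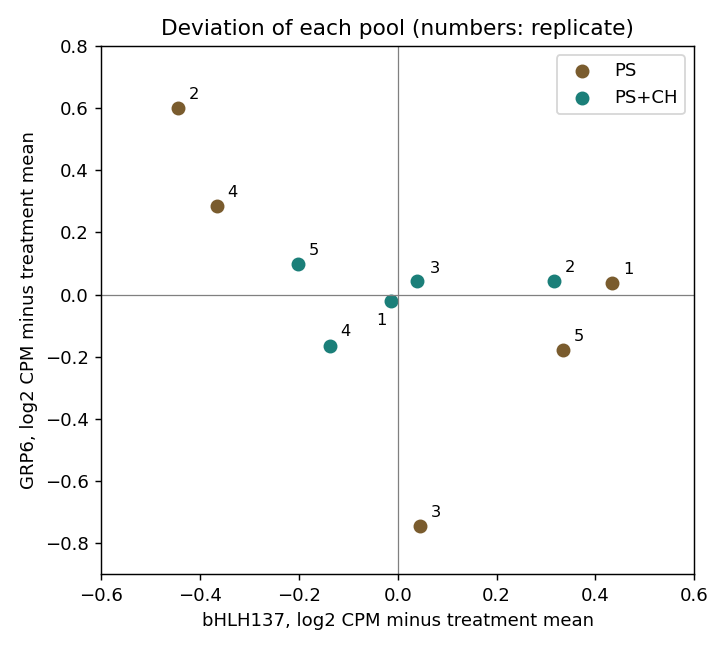
Deviation of each pool from its treatment mean in log2 CPM, with bHLH137 on the horizontal and GRP6 on the vertical axis, for PS (brown) and PS+CH (teal); numbers are replicates. PS replicates 2 and 4 lie at the upper left, PS replicate 3 at the bottom, and the PS+CH pools lie between -0.16 and 0.10 on the GRP6 axis.

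The ratio of GRP6 reads to bHLH137 reads within a library does not depend on the scaling. In PS replicates 1 to 5 it was 13.4, 36.7, 10.2, 28.0 and 12.3. In PS+CH replicates 1 to 5 it was 17.1, 14.2, 17.2, 16.9 and 21.2. The chitin pools fell inside the range of the control pools. The mean log2 ratio was 4.14 ± 0.81 (SD, n = 5) in PS and 4.10 ± 0.21 (SD, n = 5) in PS+CH, a difference of -0.04. It was -0.24 without PS replicate 3 and 0.22 without PS replicate 2. This difference is made of the contrast on which the pair was chosen, and the ratio varied widely among the PS pools. It is given as a description, and whether the 2 genes differed by the same factor was not tested.

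**Figure D3:**
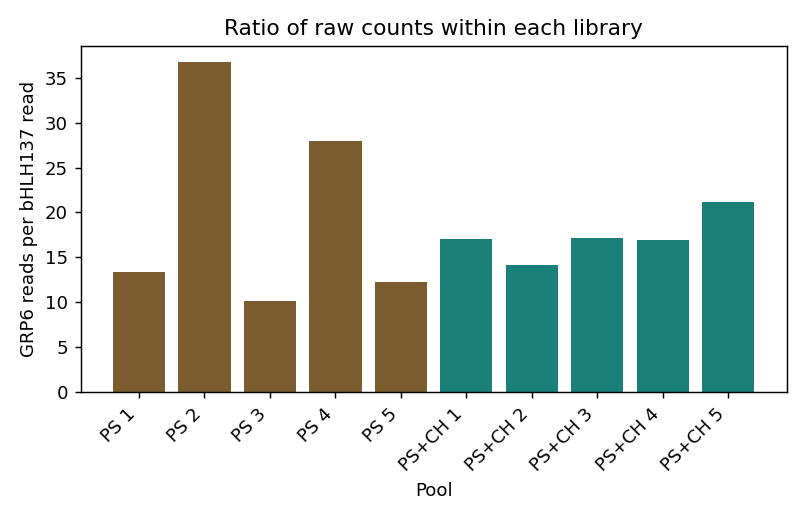
Reads of GRP6 per read of bHLH137 in each of the 10 libraries, from raw counts without scaling; brown bars are PS pools and teal bars are PS+CH pools. The ratio runs from 10.2 to 36.7 in PS and from 14.2 to 21.2 in PS+CH.

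For each gene, the tested gene with the most similar deviations over the 10 pools was sought by Pearson's r, as a description. For GRP6 this was LSAT_4X127841 (r = 0.997), which the files do not pair with a name. It followed GRP6 through the control pools, with 12.2 CPM in PS replicate 3 and 30.4 CPM in PS replicate 2. Unlike GRP6, its treatments overlapped, with means of 21.2 ± 6.76 CPM in PS against 23.9 ± 1.77 CPM in PS+CH (SD, n = 5 each). Its log2-fold change was 0.17 (SE 0.19, Benjamini-Hochberg adjusted p = 0.541 by edgeR). For bHLH137 the most similar gene was LSAT_2X133400 (r = 0.945), also without a name in the files. It averaged 16.5 ± 3.35 CPM in the control and 14.1 ± 1.63 CPM in the chitin-treated roots (SD, n = 5 each), with a log2-fold change of -0.23 (SE 0.14, Benjamini-Hochberg adjusted p = 0.254 by edgeR). Neither of these most similar genes differed detectably between the treatments. Each r is the highest of 21935 compared over 10 pools. A search of this size can give a high r without a link, so no shared variation is read from it.

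**Figure D4:**
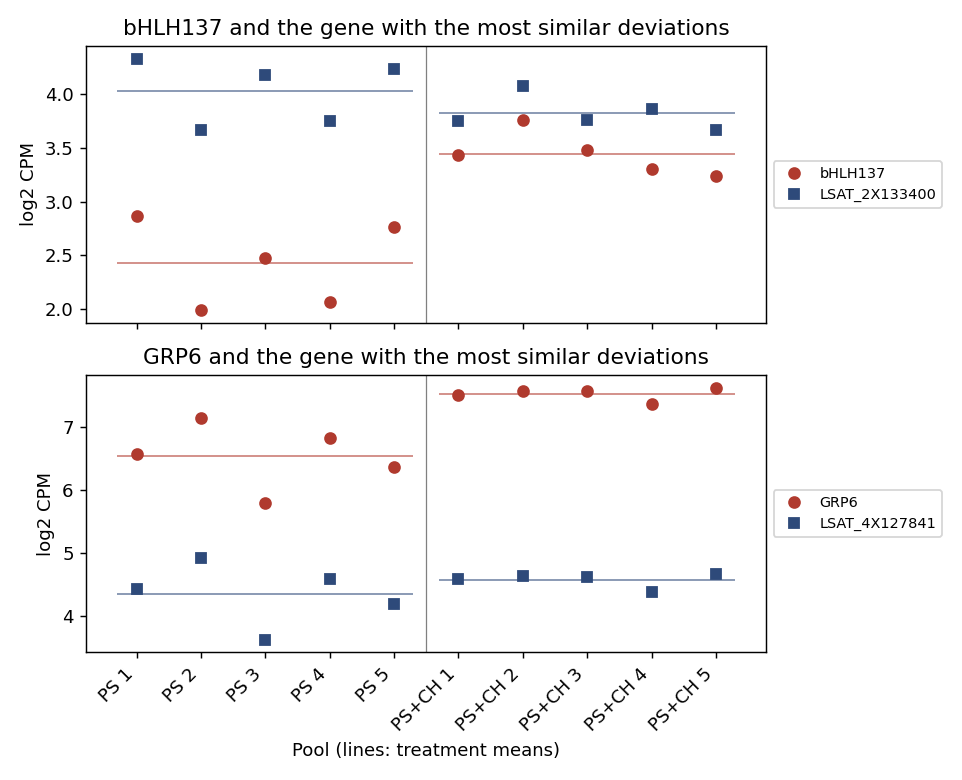
Log2 CPM per pool of bHLH137 with LSAT_2X133400 (upper panel) and of GRP6 with LSAT_4X127841 (lower panel); horizontal lines are treatment means and the grey line parts PS from PS+CH. The paired genes were chosen for the highest r over 10 pools (0.945 and 0.997), so their similar pattern within a treatment follows from the choice. The treatment means are apart for bHLH137 and GRP6 and closer for the other genes.

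In a count added after the data were seen, an r above 0.9 with GRP6 was found for 137 tested genes, against a median of 20 such genes over all tested genes, and with bHLH137 for 5. Of the tested genes, 90.4% had fewer such genes than GRP6 and 11.3% fewer than bHLH137, so the count for GRP6 was high but not particular to it. PS replicate 3 was the lowest PS pool in all 137 of the GRP6 set. GRP6 itself lay farthest from its treatment mean in this pool (-0.75 in log2 CPM), so the choice by r above 0.9 largely fixed this. Of the 137, 71 (51.8%) had a higher expression in PS+CH with an adjusted p-value under 0.05 and 0 a lower one. Of all tested genes, 7.55% were called higher. A gene that is low in PS replicate 3 also has a lower PS mean, so that the choice of these genes and the difference are not independent. Without this pool, 50 of the 137 (36.5%) were called higher and 4.58% of all tested genes. The 137 were still those chosen with this pool included. They vary together over the same pools, so they are not separate observations and these shares are a description. Of the 5 genes that followed bHLH137, 0 were called in either direction and 1 had an unadjusted p under 0.05, with edgeR, DESeq2 and limma-voom alike. Over all genes, edgeR called 4065 of 21936 in either direction, DESeq2 5587 and limma-voom 3964. With 5 genes, the 0 cannot be set against these counts or against the GRP6 set. Of the 137 in the GRP6 set, 0 were lower at an unadjusted p under 0.05 with any of these tools.

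The primer list of the study holds 4 other genes named for auxin or gibberellin. All 4 were tested, and all 4 rose in PS+CH (edgeR's quasi-likelihood F-test, p-values adjusted after Benjamini-Hochberg over all tested genes), where 7.55% of all tested genes were called higher. None of the 4 was a DEG, and their median log2-fold change was 0.89, against 0.00499 over all tested genes. The study picked part of its primer targets from these libraries, so this count is no independent evidence of a hormone response. All 4 were called in each of the 10 fits that left out 1 pool. A fit of 8 libraries with a block for the 4 numbers shared in the sample codes left 0 of the 4, and 0 of all genes, with an adjusted p-value under 0.05 (edgeR and limma-voom), while all 4 had an unadjusted p under 0.05. The lowest adjusted p-value of any gene in that fit was 0.0638 with edgeR and 0.0571 with limma-voom. The share of all tested genes called higher was 4.58% and 3.72% without PS replicates 3 and 5, and 2.11%, 3.42%, 3.35% and 3.70% without PS+CH replicates 1, 2, 4 and 5.

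Gibberellin 2-beta-dioxygenase 1 (LSAT_9X101040), an enzyme that inactivates gibberellins, had 2.50 to 4.90 CPM in PS and 5.66 to 9.52 CPM in PS+CH. Its log2-fold change of 0.92 (SE 0.21, Benjamini-Hochberg adjusted p = 0.0162 by edgeR) was as large as that of GRP6. Among the auxin genes, SAUR78 (LSAT_8X85101), of a family of small transcripts induced by auxin, averaged 10.4 ± 1.63 CPM in the control and 19.9 ± 3.73 CPM in the chitin-treated roots (SD, n = 5 each). Its log2-fold change was 0.93 (SE 0.15, Benjamini-Hochberg adjusted p = 0.00784 by edgeR). For gibberellin 2-beta-dioxygenase 1 and SAUR78, every PS+CH pool lay above every PS pool, as it did for the 2 genes below.

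IAA14 is known in Arabidopsis as a repressor of auxin responses that holds back lateral root formation, and 2 loci carry its name in the primer list. LSAT_5X66981 had 58.9 to 105 CPM in PS and 128 to 150 CPM in PS+CH, with a log2-fold change of 0.65 (SE 0.13, Benjamini-Hochberg adjusted p = 0.0126 by edgeR). LSAT_3X125741 had 11.2 to 16.9 CPM in PS and 18.8 to 31.1 CPM in PS+CH, with a log2-fold change of 0.86 (SE 0.14, Benjamini-Hochberg adjusted p = 0.00840 by edgeR). For LSAT_5X66981, as for GRP6, PS replicate 3 was the lowest and PS replicate 2 the highest control pool.

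The other primer targets considered were those with a matching locus tag and a name that refers to a hormone or a bHLH factor. The ethylene-responsive ERF1, listed without such a tag, was left out, and aquaporin TIP1-1 and Patellin-3 were added as growth-related. Of the 5 targets considered, 3 passed the filter and were called higher, where 7.55% of all tested genes were called higher. The study picked part of its targets from these libraries, so this count is no independent evidence either. The ethylene-responsive factor ERF062 (LSAT_6X60300) averaged 15.1 ± 4.66 CPM in the control and 32.0 ± 6.48 CPM in the chitin-treated roots (SD, n = 5 each). Its log2-fold change of 1.09 (SE 0.21, Benjamini-Hochberg adjusted p = 0.0107 by edgeR) made it the only DEG among the 7 tested targets, where 3.32% of all tested genes were DEGs. This share was 1.70% without PS replicate 3 and 2.08% without PS+CH replicate 1. ERF062 was a DEG in 8 of the 10 fits that left out 1 pool.

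Patellin-3 (LSAT_6X111521), a lipid-binding protein of membrane traffic, had a log2-fold change of 0.69 (SE 0.13, Benjamini-Hochberg adjusted p = 0.00962 by edgeR). The aquaporin TIP1-1 (LSAT_6X43221), a water channel of the vacuole membrane, had one of 0.89 (SE 0.23, Benjamini-Hochberg adjusted p = 0.0235 by edgeR). For TIP1-1, 4 of the 5 chitin pools exceeded the highest control pool. Its call was lost without PS replicate 3, PS+CH replicate 1 or PS+CH replicate 4, with adjusted p-values of 0.0510, 0.0612 and 0.0526 (edgeR). BHLH42 (LSAT_5X190001), another bHLH factor, had at most 10 reads in any pool and was not tested. The salicylic acid-binding protein 2 gene (LSAT_3X91921) had at most 5 reads in a PS pool and 35 in a PS+CH pool and was not tested either.

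**Figure D5:**
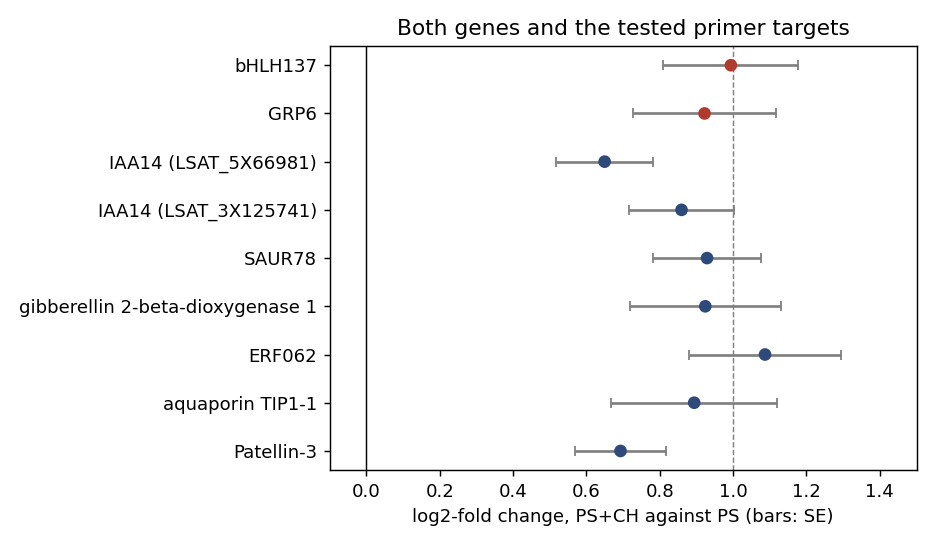
Log2-fold change of PS+CH against PS with its standard error from the edgeR fit, for bHLH137 and GRP6 (red) and the 7 other primer targets that were tested (blue). All 9 lie to the right of 0, from 0.65 for IAA14 (LSAT_5X66981) to 1.09 for ERF062, around the dashed line that marks the threshold of 1.

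After the values were known, the deviations of these 7 targets were also compared with those of bHLH137 and GRP6, which with the pair itself gave 15 relations. For IAA14 (LSAT_5X66981) and GRP6, r was 0.90 (exact permutation test within treatments, two-sided, p = 0.0152, n = 10, 0.197 after Benjamini-Hochberg adjustment). Spearman's rho was 0.71 (exact permutation test, p = 0.0756, 0.240 after adjustment), and without PS replicates 2 and 3, the pools farthest from the median of GRP6, r was 0.43 (exact permutation test, p = 0.461). For the other IAA14 locus (LSAT_3X125741) and GRP6, r was 0.60 (exact permutation test, p = 0.0262, 0.197 after adjustment), and 0.61 without the same 2 pools (exact permutation test, p = 0.0611). For gibberellin 2-beta-dioxygenase 1, r was 0.62 with bHLH137 (exact permutation test, p = 0.1, 0.350 after adjustment). With GRP6 its r was -0.66 (exact permutation test, p = 0.0733, 0.350 after adjustment) and its rho was -0.78 (exact permutation test, p = 0.0140, 0.209 after adjustment). Without the 2 pools farthest from the median, these r were 0.37 (exact permutation test, p = 0.407) and -0.75 (exact permutation test, p = 0.0486). Without PS replicates 2 and 3, r with GRP6 was -0.85 for ERF062 (exact permutation test, p = 0.0292) and -0.74 for SAUR78 (exact permutation test, p = 0.0153), against -0.47 (p = 0.331) and -0.03 (p = 0.942) with all 10 pools. The values without 2 pools are not adjusted. With all 10 pools, none of the 15 relations passed after adjustment.

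Green tissue was checked through 7 photosynthesis genes that the study named in these roots. Their summed level was 2.29 to 12.7 CPM in PS and 2.90 to 49.6 CPM in PS+CH. PS+CH replicate 2, the pool with the highest sum, also had the highest bHLH137 level, and without it the log2-fold change of bHLH137 was 0.91. PS+CH replicate 4 had the lowest sum in PS+CH, 2.90 CPM, with 9.78 CPM of bHLH137 and 165 CPM of GRP6. Of the 7 photosynthesis genes 6 were tested. With edgeR 0 of them had an adjusted p-value under 0.05 and all 6 an unadjusted one. With DESeq2 the counts were 2 and 5, and with limma-voom 0 and 1. Over all genes, edgeR gave an adjusted p-value under 0.05 for 4065 of 21936, DESeq2 for 5587 and limma-voom for 3964. A count out of 6 genes is too small to set against these. The study had chosen these genes on these samples, where it listed all 7 as DEGs with higher expression under chitin. The part of green tissue in the differences of bHLH137 and GRP6 was not tested.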

How the data were processed

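RNA-Seq libraries of lettuce roots from 5 PS and 5 PS+CH pools, each of 5 plants, were compared. The authors deposited raw read counts per gene, which per the submitters' notes and the study's methods came from FastQC (0.11.9), STAR (2.7.10) and featureCounts (2.0.1) on the 'Salinas' v7 assembly. The library kit kept strand, and the strand setting of the counting is not given in the sources used here, so antisense reads cannot be told apart. Reads shared between relatives of a gene family are likewise uncertain, and no molecular identifiers were used, so Poisson intervals cover counting error only.

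Genes were filtered with filterByExpr (minimum count 10) and scaled by TMM, and PS+CH was set against PS in the quasi-likelihood F-test of edgeR (4.0.16, with limma 3.58.1 in R 4.3.3), adjusting p-values after Benjamini-Hochberg over 21936 genes. A gene was a DEG where this adjusted value was below 0.05 and the log2-fold change was 1 or more in size. Log2 CPM used a prior count of 2. Deviations and spread were compared by exact permutation tests. The edgeR fit was tested on simulated data. Alternatives were other scalings, filters, DESeq2 (1.42.0), limma-voom, replicate blocks and leaving out each pool.

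The members and lists were chosen with earlier results of these data known. The genes named were bHLH137 and GRP6, the primer targets of the study named for a hormone, a bHLH factor or growth, and for each member the tested gene with the highest r of deviations. Locus tags of the photosynthesis genes were assigned through fold changes printed by the study. No locus tag matched the RefSeq gene table at hand, so no position, protein or promoter is given.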

Additional observations from a re-analysis of the deposited data

Results flagged for a closer look

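Of 26 groups of 5 pools, 3 held a pool far from the others by Dixon's criterion for 5 values (gap over range above 0.71), where chance gives about 1 in 20. Neither bHLH137 nor GRP6 was among them. Patellin-3 had 625 CPM in PS replicate 1, with 464 CPM in the nearest PS pool (gap over range 0.716). LSAT_4X127841, the gene most like GRP6, had 20.8 CPM in PS+CH replicate 4, with 24.1 CPM in the nearest PS+CH pool (0.714). GRP6 itself was also lowest in this pool among the PS+CH pools. The salicylic acid-binding protein 2 gene had 0.272 CPM in PS replicate 5, with 0.0543 CPM in the nearest PS pool (0.80), which rests on 5 reads at most.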

How the results depend on the processing

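The log2-fold change of bHLH137 was 0.89 to 1.11 on leaving out 1 pool and 0.91 to 1.17 under the other settings. That of GRP6 was 0.76 to 1.08 and 0.84 to 1.04, so that both genes fell on either side of the threshold of 1. Leaving out 1 pool gave 1502 to 4110 genes with an adjusted p-value under 0.05 (4065 with all pools) and 375 to 887 DEGs (728 with all pools). The difference in spread was -0.26 to -0.13 for bHLH137 and -0.39 to -0.19 for GRP6 on leaving out 1 pool, and the correlation of their deviations was -0.71 to -0.17 and passed under none of its 16 alternatives. The replicate numbers of the titles were not taken as pairs, since 3 and not all of the 5 same-numbered pairs had a correlation of deviations above 0.1. The mean over the 5 pairs was 0.26 and 5 of 10 pools correlated best with their own number, so whether the numbers mark a shared origin is not settled. With the replicate block, 6199 genes had an adjusted p-value under 0.05, and of 902 DEGs 699 were shared with the fit without it. The block gave log2-fold changes of 1.01 for bHLH137 and 0.98 for GRP6. A replicate block by the 4 numbers shared in the sample codes, on 8 libraries, gave 0 genes with an adjusted p-value under 0.05, 0 DEGs and 0 of the 4 growth-hormone targets (edgeR). At an unadjusted p under 0.05 it gave 5696 genes with edgeR, all 4 targets among them, and 5818 with limma-voom, which also had 0 after adjustment. The lowest adjusted p-value of this fit lay just over the threshold, at 0.0638 with edgeR and 0.0571 with limma-voom. Why no gene passed was not tested. Depth limited bHLH137 more than GRP6, with 71 reads in its lowest pool against 1061.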
